A study of Homo sapiens with 16 samples.

Results

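The AP-1 FOS and JUN family was followed here as 10 genes: the FOS proteins FOS, FOSB, FOSL1 and FOSL2, the JUN proteins JUN, JUNB and JUND, and the related basic leucine zipper factors ATF3, BATF3 and JDP2. They were found by symbol among the 35052 genes measured. The rule used no measured value, but the members were chosen with earlier results of these data known. The cells were K562, an established human leukaemia line that keeps erythroid genes on and can take on megakaryocyte-like features, labelled as wild type. They received 25 nM PMA (phorbol 12-myristate 13-acetate), a phorbol ester that activates protein kinase C, for 0.5 to 72 h, sampled early at 0.5, 1.5, 3 and 6 h and late at 24, 48 and 72 h. Cells at 0 h were the untreated group, and the medium was renewed after 24 and 48 h. After removal of ribosomal RNA, total RNA was sequenced in 2 libraries per time point, 16 in all. The labels do not say whether the 2 libraries of a time point came from separate cultures, so every p-value measures only the spread between these libraries, which may be technical.

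AP-1 is a dimer of basic leucine zipper proteins that binds the DNA element TGACTCA and, with some partners, the longer cAMP response element. JUN proteins pair with one another and with FOS proteins, whereas FOS proteins need a JUN partner to bind DNA. FOS, FOSB, JUN, JUNB and ATF3 are textbook immediate-early genes, switched on by signalling without new protein synthesis. JDP2 and ATF3 homodimers and JUN complexes with BATF proteins can repress or redirect AP-1 sites. In cells treated with phorbol esters the protein kinase C and MAP kinase pathways act on FOS through serum response elements and on JUN through sites close to the cAMP response element.

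Letters of such elements were sought in the RefSeq promoter windows of the members (GRCh38.p14, 250 bases before to 50 bases after a gene's start). The windows are shown because the members that rose first do not carry the same letters there. A window was available for 8 of the 10 genes, not for FOSL1 or BATF3, and several genes have more than 1 start, giving 11 windows. Each line gives 30 bases on the strand of the gene, 5′ to 3′, with the matched letters in capitals.
JUN, chr1:58784096-58784125, minus strand: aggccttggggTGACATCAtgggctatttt
ATF3, chr1:212565273-212565302, plus strand: cacctatgataTGACATCAtatggccactc
FOSB, chr19:45467925-45467954, plus strand: caaggggcgggTGACGTAAgcaggggggcg
JUND, chr19:18281804-18281833, minus strand: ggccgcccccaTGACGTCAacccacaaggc
JDP2, chr14:75427914-75427943, plus strand: ccgtccccctcTGACGTCTggagctggcag
FOSL2, chr2:28392851-28392880, plus strand: tgccattgtagTGACTCAtctcgggcagag
FOS, chr14:75278783-75278812, plus strand: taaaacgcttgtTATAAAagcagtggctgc
JUNB, chr19:12791443-12791472, plus strand: tgactagcgcggTATAAAggcgtgtggctc
JUN and ATF3 held the same 8 letters, TGACATCA, 67 and 123 bases before their RefSeq starts. These differ by 1 base from the cAMP response element TGACGTCA, which JUND held unchanged 200 bases before its start. FOSB held TGACGTAA and JDP2 TGACGTCT. FOSL2 was the only member with a TGACTCA, 4 bases after its start. It also held the 1-base variants TGGCGTCA and TGACGTGA, 204 and 66 bases before its start. JUND held a further variant, CGACGTCA, 89 bases before its start. The letters TATAAA stood 33 bases before the start of FOS, 31 before that of JUNB and 30 before that of FOSB. Both strands were searched, and the 1-base variants exclude the unchanged element. Among all 35116 windows of the same length, 4.95% held TGACTCA, 1.85% TGACGTCA, 10.2% a 1-base variant of it, 11.5% TATAAA and 1.29% a CArG box, the core of the serum response element. Of the 11 member windows 6 held a 1-base variant, 1 TGACTCA, 1 TGACGTCA and 4 TATAAA. No member window held a CArG box, which says only that these letters are not in these windows. The annotated transcripts of FOS and JUN used for counting start 54 and 280 bases farther upstream than the RefSeq starts, so the JUN window lies inside its transcript and the FOS window in part. For ATF3 and JDP2 the matched windows belong to other starts than those of the main transcripts. ATF3-202, with 79.6% of ATF3 reads over all libraries, starts 43263 bases downstream of the start with TGACATCA. JDP2-201 starts 4112 bases downstream of the start with TGACGTCT.

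Library totals ran from 27285773 to 54056289 estimated reads. Of the 35052 genes 17559 passed the low-count filter, and all 10 members were among them. Erythroid markers stayed present, with 11 of 11 tested and a summed level of 1664 to 2028 CPM (reads scaled to library size) at 0 h and 1211 to 1592 CPM at 72 h. Megakaryocyte markers summed to 60.3 to 70.2 CPM at 0 h and 5360.3 to 6169.5 CPM at 72 h, but GP1BA, GP9, PF4 and SELP were among those under the filter. Markers of other cell types summed to 83.1 to 85.6 CPM at 0 h and 293 to 304 CPM at 72 h, and most of that rise was COL1A1, a fibroblast collagen, from 3.10 to 3.84 CPM up to 196 to 218 CPM. The pericyte receptor PDGFRB went from 0 to 0.0614 CPM up to 16.6 to 17.7 CPM and the macrophage receptor CSF1R from 0.0307 to 0.0966 CPM up to 6.65 to 7.87 CPM, while the B-cell marker MS4A1 was at 0 in the 0 h and 72 h libraries. The part of these shifts in the results was not tested. In bulk RNA, a change in the fraction of cells that express a gene and a change in RNA per cell cannot be told apart. The 2 untreated libraries differed from each other along GC content, with r = 0.74 across 9975 genes, which are not independent replicates. The change from 0 to 0.5 h followed GC content with r = -0.77 across the same genes. This touches the GC-rich JUND most (69.7% GC), and its values are given with and without a GC correction.

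Before treatment the most abundant member per length was JUND, and the least abundant was BATF3. In TPM, a scale that divides reads by transcript length and library size and so allows genes to be set side by side, JUND stood at 95.9 and 112 in the 2 libraries and ATF3 at 63.9 and 73.3. JUN (34.01 and 32.4), FOSL1 (25.1 and 35.5) and JUNB (27.4 and 30.9) came next, and neighbours in this order had overlapping ranges. JDP2 stood at 15.4 and 21.8 TPM. The genes best known for fast induction were low, with FOS at 6.81 and 5.20, FOSB at 3.50 and 2.36 and FOSL2 at 2.18 and 2.29 TPM. Genes of JUN proteins therefore held 57.0 and 55.2% of the summed TPM of the 10 genes. Those of FOS proteins held 13.6 and 14.3%.

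**Figure D1:**
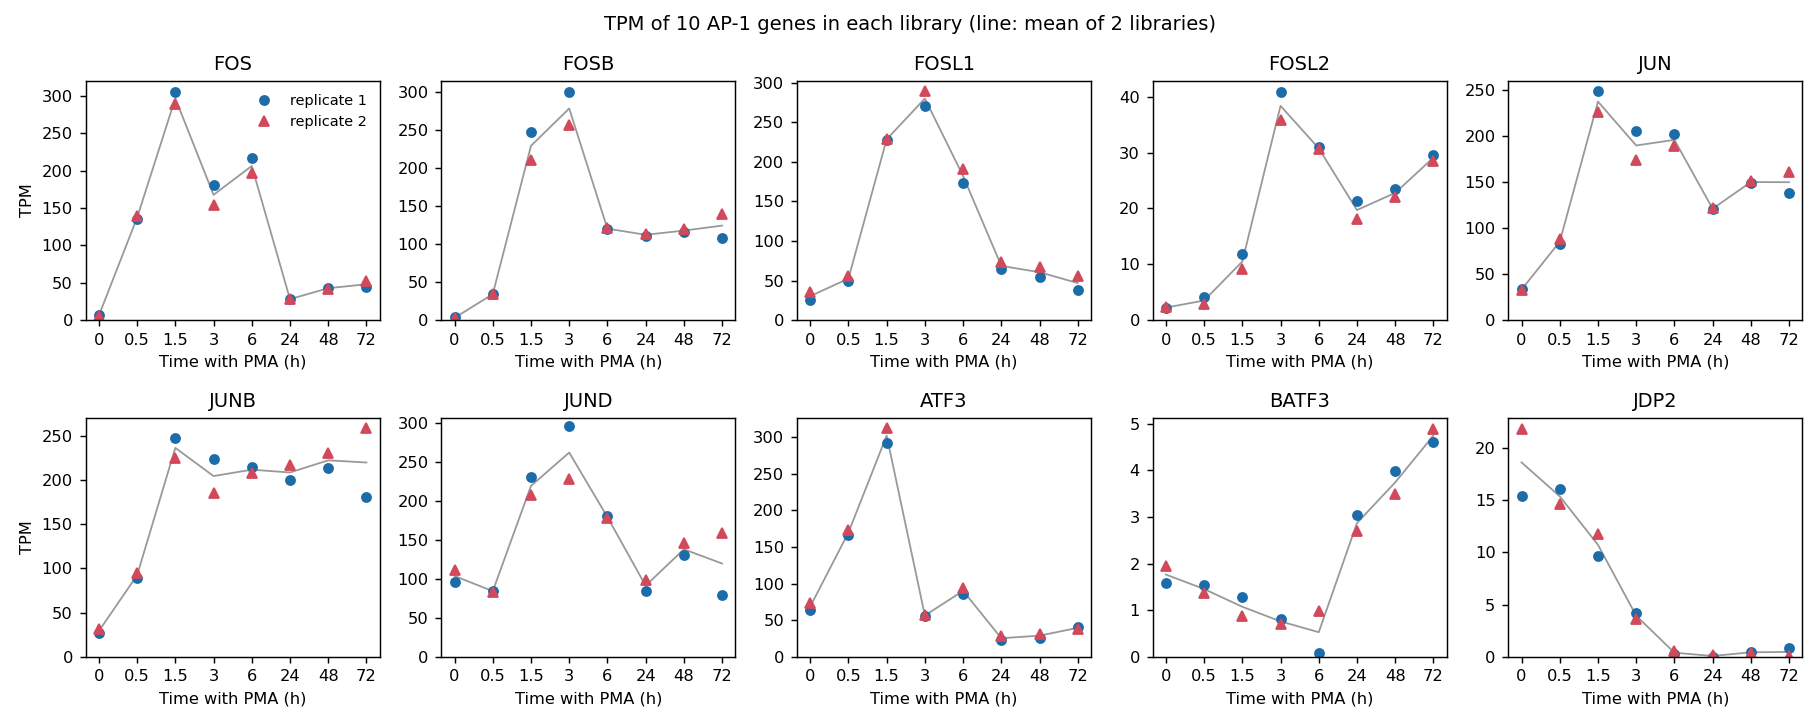
TPM of each member (y axis, linear from 0, a separate scale per panel) in the 16 libraries at the 8 time points (x axis, evenly spaced categories), with circles for replicate 1, triangles for replicate 2 and a line through the mean of 2. FOS and ATF3 peaked at 1.5 h, FOSB, FOSL1, FOSL2 and JUND at 3 h, BATF3 was highest at 72 h and JDP2 lowest at 24 h.

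All 10 members differed among the 8 time points by edgeR's quasi-likelihood test over all times together, at a Benjamini-Hochberg adjusted p under 0.05. Of all genes tested 82.9% did so, so this count says little by itself. The direction and timing split the members. At 0.5 h, 5 of the 10 were higher than at 0 h, in a comparison where 0.165% of all genes, 29 of them, were called higher. No member was lower, nor were more than 0.00570% of all genes. These 5 were FOS, FOSB, JUNB, JUN and ATF3. At 1.5 h 8 were higher (9.05% of all genes) and 0 lower (8.05%), the 5 above joined by FOSL1, FOSL2 and JUND. At 3 h 7 were higher and 2 lower, against 21.5% and 20.5% of all genes. At 6 h 8 were higher and 2 lower, against 27.8% and 29.4%. At 24 h the counts were 6 and 2 (31.7% and 26.6% of all genes), at 48 h 7 and 2 (30.2% and 24.1%), and at 72 h 7 and 2 (31.7% and 26.9%). All 7 of these comparisons share the 0 h libraries. The 0.5 h background rests on the untreated libraries: without 0 h replicate 1 the test called 3585 of 18033 genes, and 5 members were higher in that fit too.

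**Figure D2:**
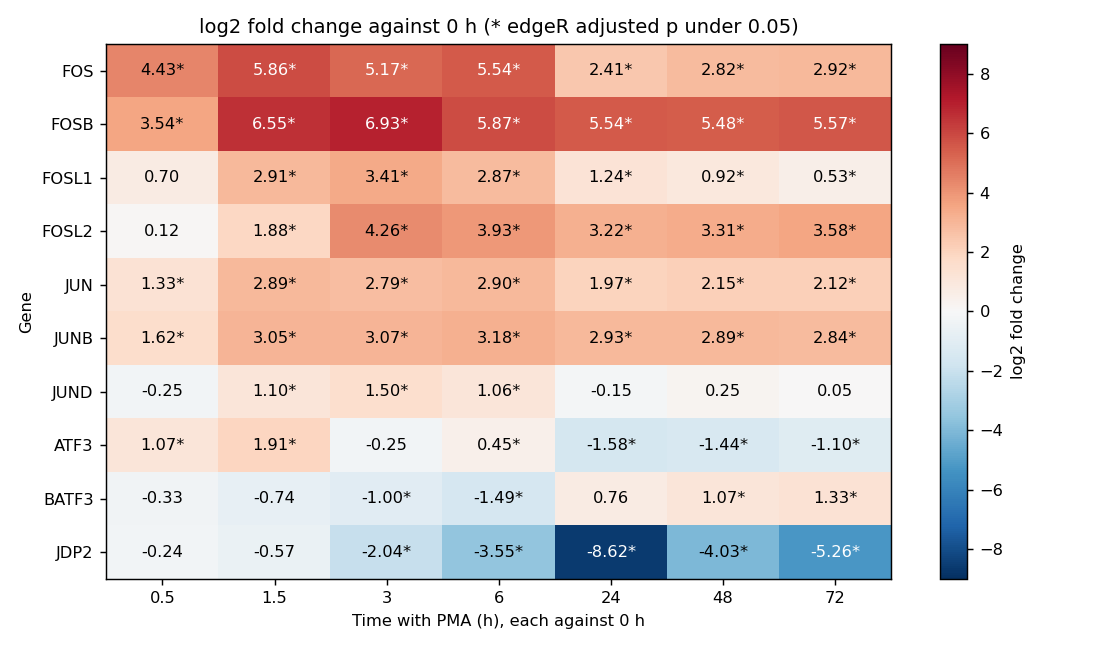
Heat map of the log2 fold change of each member (rows) at each time against 0 h (columns), with the value in each cell and an asterisk where edgeR's adjusted p was under 0.05. FOS, FOSB, JUN and JUNB are above 0 in every column, ATF3 turns from above to below 0, and JDP2 is below 0 throughout (its 24 h value rests on 3 reads and depends on the prior count of the fit).

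FOS, the founding partner of JUN, showed the largest rise of any member at 0.5 h and later fell back most of the way. It had 198 and 192 reads in the 0 h libraries, 4961 and 4638 (0.5 h) and 12560 and 12096 (1.5 h). Per length this was 135 and 139 TPM at 0.5 h, 305 and 288 (1.5 h), 181 and 154 (3 h) and 216 and 196 (6 h). The libraries of 24 h had 28.5 and 27.6 TPM, those of 48 h 43.3 and 41.9, and those of 72 h 44.0 and 51.9. Every treated library lay above both untreated ones. The log2 fold change against 0 h was 4.43 ± 0.13 (SE) at 0.5 h (edgeR adjusted p = 3.14e-10), a 21.5-fold rise, and ranked 5 among the 29 genes called higher. It was 5.86 ± 0.13 (1.5 h), 5.17 ± 0.13 (3 h), 5.54 ± 0.13 (6 h) and 2.41 ± 0.12 (24 h). The mean level at 72 h was 13.0% of the peak in CPM, at a log2 fold change of 2.92 ± 0.12.

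FOSB, the FOS protein whose short form lacks the C-terminal activation domain, was called higher from 0.5 h on, like FOS, and reached the largest fold change of the family at 3 h. At 72 h its CPM was 39.0% of that peak. Its 0 h libraries had 200 and 143 reads, and those of 3 h 25890 and 18549. In TPM it stood at 33.9 and 34.3 (0.5 h), 247 and 210 (1.5 h), 299 and 256 (3 h), then 119.6 and 120.4 (6 h). None of the steps after 6 h passed the test, with 111 and 113 TPM at 24 h, 115 and 119.5 (48 h), and 108 and 139.7 (72 h). Its log2 fold change was 3.54 ± 0.17 (0.5 h), 6.55 ± 0.19 (1.5 h), 6.93 ± 0.19 at 3 h (edgeR adjusted p = 1.3e-11) and 5.57 ± 0.18 (72 h). Per length, FOS lay above FOSB at 0, 0.5, 1.5 and 6 h, and FOSB above FOS at 3, 24, 48 and 72 h, without overlap between their libraries.

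FOSL1 (FRA-1), which lacks a strong activation domain, peaked at 3 h and came back close to its starting level. It stood at 49.6 and 55.2 TPM at 0.5 h, 228 and 229 (1.5 h), 271 and 289 (3 h), 173 and 191 (6 h), 64.2 and 72.8 (24 h), 54.2 and 66.8 (48 h) and 38.2 and 55.5 (72 h). Both 0.5 h libraries lay above both untreated ones, yet the log2 fold change of 0.70 ± 0.21 did not pass (edgeR adjusted p = 0.18). GC offsets (1.02), no low-count filter (0.72) and DESeq2 (0.70) called it. At 3 h the log2 fold change was 3.41 ± 0.23, and at 72 h 0.53 ± 0.21 (edgeR adjusted p = 0.046). That last call was lost in 8 of the 16 fits that left out a library, with the lowest values without 0 h replicate 1 (0.25) and 72 h replicate 2 (0.27). It was also lost with total counts (0.38) and with only the 2 times (0.50), and the value was 0.88 without 0 h replicate 2.

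FOSL2 (FRA-2), like FOSL1, was not called at 0.5 h and peaked at 3 h. It stayed at 4.10 and 2.91 TPM at 0.5 h, where its log2 fold change was 0.12 ± 0.11 (edgeR adjusted p = 0.58), and reached 11.8 and 9.18 TPM at 1.5 h. At 3 h it had 40.9 and 35.8 TPM and a log2 fold change of 4.26 ± 0.12, smaller at that time only than those of FOSB and FOS. It remained higher at 31.0 and 30.6 TPM at 6 h, 21.4 and 18.0 (24 h), 23.5 and 22.1 (48 h) and 29.6 and 28.5 (72 h). The log2 fold change was 3.58 ± 0.11 at 72 h (edgeR adjusted p = 9.6e-12), and the CPM there was 62.4% of the peak.

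JUN and JUNB, the partners that FOS proteins need, rose at 0.5 h and again to 1.5 h, and stayed above their untreated levels to 72 h. JUN stood at 82.5 and 88.0 TPM at 0.5 h, 249 and 226 (1.5 h), 205 and 174 (3 h), 202 and 189.7 (6 h), 121 and 122 (24 h), 149 and 151 (48 h), and 139 and 161 (72 h). JUNB stood at 89.2 and 94.98 TPM at 0.5 h, 248 and 224 (1.5 h), 223 and 185 (3 h), 215 and 208 (6 h), 200.05 and 216 (24 h), 213 and 231 (48 h) and 180.5 and 259 (72 h). For JUN the log2 fold change went from 1.33 ± 0.12 (0.5 h) to 2.90 ± 0.13 (6 h) and 2.12 ± 0.12 (72 h). For JUNB, a weaker activator than JUN, it went from 1.62 ± 0.18 to 3.18 ± 0.19 and 2.84 ± 0.19 at the same times. JUNB at 72 h held 79.1% of its peak CPM and JUN 58.3%. From 6 h to 24 h JUN fell by 0.93 on the log2 scale (SE 0.12, edgeR adjusted p = 1.9e-05), while JUNB was at -0.25 ± 0.17 and did not pass (edgeR adjusted p = 0.22). The difference between these 2 values was not tested.

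JUND, the JUN gene that many resting cells express, rose at 1.5 to 6 h and was not called at 0.5, 24, 48 or 72 h. It stood at 85.2 and 83.6 TPM at 0.5 h, 232 and 208 (1.5 h), 296 and 229 (3 h), 180.4 and 179 (6 h), 84.5 and 98.3 (24 h), 130.4 and 146 (48 h). At 72 h its libraries were far apart, at 80.1 and 159.7 TPM, on either side of the untreated range. For JUND the log2 fold change was 1.0998 ± 0.22 (1.5 h), 1.50 ± 0.23 at 3 h (edgeR adjusted p = 0.00011) and 1.06 ± 0.22 (6 h). The uncalled values were -0.25 ± 0.22 (0.5 h), -0.15 ± 0.22 (24 h), 0.25 ± 0.22 (48 h) and 0.05 ± 0.22 (72 h). With GC offsets these 4 values became 0.37, 0.26, 0.61 and 0.60, all of them called (edgeR adjusted p = 0.0485 at 0.5 h and 0.00482 at 24 h), so the direction at 0.5 and 24 h turned. The values at 1.5 and 6 h became 1.67 and 1.77. Scaled to total counts, the 6 h value was 0.69 and the 72 h value -0.10.

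ATF3, a stress-induced factor that acts mainly as a repressor when it binds as a homodimer, rose first and then fell below its starting level. Its libraries had 167 and 173 TPM at 0.5 h, 292 and 312 (1.5 h), 55.8 and 57.0 (3 h) and 86.2 and 94.0 (6 h). Later values were 22.9 and 27.9 TPM at 24 h, 26.3 and 31.5 (48 h) and 40.9 and 38.2 (72 h), all under the untreated 63.9 and 73.3. Against 0 h the log2 fold change of ATF3 was 1.07 ± 0.12 at 0.5 h (edgeR adjusted p = 0.0011), 1.91 ± 0.12 (1.5 h), -1.58 ± 0.13 at 24 h (edgeR adjusted p = 1.3e-07), -1.44 ± 0.13 (48 h) and -1.102 ± 0.12 (72 h). The 0.5 h call was lost with only the 2 times (1.09). Between 1.5 and 24 h it was -0.25 ± 0.12 (3 h), not called, and 0.45 ± 0.12 (6 h), called. The 3 h value was called without 0 h replicate 1 (-0.43) and with total counts (-0.53). The 6 h call was lost without 0 h replicate 1 (0.27) and with scaling to total counts (0.08), and length-scaled TPM gave 0.72. From 1.5 to 3 h ATF3 fell by 2.17 on the log2 scale, rank 49 among the 2128 genes called lower in that step.

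BATF3, a small factor that pairs with JUN and lacks an activation domain of its own, was the lowest member up to 3 h and moved the other way from ATF3. It had 25 and 30 reads in the 0 h libraries, 16 and 13 (3 h), 3 and 13 (6 h), 47 and 69 (24 h), 62 and 63 (48 h) and 79 and 69 (72 h). In TPM it fell from 1.59 and 1.94 to 0.0733 and 0.983 (6 h) and stood at 4.61 and 4.89 (72 h). For BATF3 the log2 fold change was -0.997 ± 0.38 at 3 h (edgeR adjusted p = 0.048), -1.49 ± 0.42 at 6 h (edgeR adjusted p = 0.0069), 1.07 ± 0.33 (48 h) and 1.33 ± 0.33 at 72 h (edgeR adjusted p = 0.003). Counting error alone gave a 72 h to 0 h ratio of 2.52 from pooled reads, with a 95% interval of 1.84 to 3.50. The 3 h call was lost in 7 of the 9 other processing settings that gave a value and in 12 of the 16 fits that left out a library, among them those without either 0 h or either 3 h library. The 6 h value was -0.89 and not called without 6 h replicate 1, and -2.71 without 6 h replicate 2. The 48 h call was lost without 0 h replicate 1 (0.92) or 48 h replicate 1 (1.02), and length-scaled TPM called neither the 6 h (-1.31) nor the 48 h value (1.06).

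JDP2, a factor that binds with JUN and keeps AP-1 sites repressed, fell by the largest factor of the family. It had 426 and 604 reads at 0 h, 534 and 468 (0.5 h), 339 and 415 (1.5 h), 169 and 99 (3 h), 6 and 68 (6 h), 0 and 3 (24 h), 53 and 14 (48 h), and 26 and 3 (72 h). All libraries from 3 h on lay below both untreated libraries. The log2 fold change was -2.04 ± 0.61 at 3 h (edgeR adjusted p = 0.015), -3.55 ± 0.69 (6 h), -4.03 ± 0.70 (48 h) and -5.26 ± 0.78 at 72 h (edgeR adjusted p = 5.3e-05). At 24 h the pooled reads per effective library were 427-fold lower than at 0 h, with a 95% counting interval of 146 to 2074, and edgeR's adjusted p was 1e-05. The 3 h call was lost without 0 h replicate 2 (-1.73), without 3 h replicate 2 (-1.81) or with DESeq2 (-2.03), and the 6 h value was -5.95 without 6 h replicate 2. When a library was left out, the 48 h value ranged from -5.36 to -3.33 and the 72 h value from -7.38 to -4.48, all called. A rise from 24 to 48 h was called (edgeR adjusted p = 0.035), but not without 24 h replicate 1, 24 h replicate 2 or 48 h replicate 1, nor with length-scaled TPM. In 6 h replicate 2, 65.5 of the reads were given to the transcript JDP2-203 and 2.57 to the main transcript JDP2-201. In 48 h replicate 1 all 53.1 reads were given to JDP2-203.

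The steps between neighbouring times show where the family moved. From 0.5 to 1.5 h 8 members rose (4.11% of all genes were higher) and 0 fell (1.67%), led by FOSB with a log2 change of 3.01 ± 0.15. From 1.5 to 3 h only FOSL2 passed upward (2.37 ± 0.11, against 13.0% of genes), while FOS (-0.68 ± 0.10) and ATF3 (-2.17 ± 0.13) passed downward (12.1%). From 3 to 6 h ATF3 (0.70 ± 0.12) and FOS (0.37 ± 0.10) were higher (19.0% of genes), and FOSB (-1.07 ± 0.14), FOSL1 (-0.54 ± 0.20) and FOSL2 (-0.33 ± 0.10) lower (22.1%). The FOS value of that step was 0.58 without 3 h replicate 1 and 0.18, not called, without 3 h replicate 2, and the call was also lost without 6 h replicate 1. FOSL1 lost its call in 9 of the 16 fits that left out a library, among them those without either 3 h or either 6 h library. FOSL2 lost it in 3, without 3 h replicate 1 (-0.19), 6 h replicate 1 or 6 h replicate 2. Length-scaled TPM and only the 2 times called neither FOS nor FOSL2.

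The long step from 6 to 24 h lowered most of the family, with 7 members lower (25.8% of genes) and 1 higher (30.8%). FOS fell by 3.13 on the log2 scale (SE 0.11, edgeR adjusted p = 2.5e-10), and the changes of ATF3 (-2.03), FOSL1 (-1.63), JUND (-1.204), JUN (-0.93) and FOSL2 (-0.71) were called as well. JDP2 was the seventh, at -2.66 and not called without 6 h replicate 2. BATF3 rose by 2.26 ± 0.39 and by 3.47 without 6 h replicate 2. FOSB (-0.33 ± 0.14) and JUNB (-0.25 ± 0.17) did not pass. From 24 to 48 h FOS rose by 0.41 ± 0.11 and JDP2 as described (8.88% of genes were higher), and 0 members fell (6.12%). The FOS call of this step was lost without any of the 4 libraries compared, with values of 0.39 to 0.44. From 48 to 72 h 0 members rose (1.14% of genes) or fell (0.325%) by edgeR.

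The summed TPM of the 10 genes and its split show the exchange of members. The sum was 276 and 317 (0 h), 664 and 687 (0.5 h), 1824 and 1720.1 (1.5 h) and 1578 and 1385 (3 h). It was 656 and 699 (24 h), and 666 and 898 (72 h). Genes of FOS proteins took 33.5 and 33.7% of it at 0.5 h and 50.2 and 53.1% (3 h), then 33.1 and 30.7% (72 h). Those of JUN proteins took 38.7 and 38.8% (0.5 h) and 60.0 and 64.5% (72 h). The ratio of JUN to FOS protein genes in TPM was 4.18 and 3.86 (0 h), 0.916 and 0.799 (3 h) and 1.81 and 2.102 (72 h). Shares of a sum move together, since a rise of some members lowers the share of the rest.

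**Figure D3:**
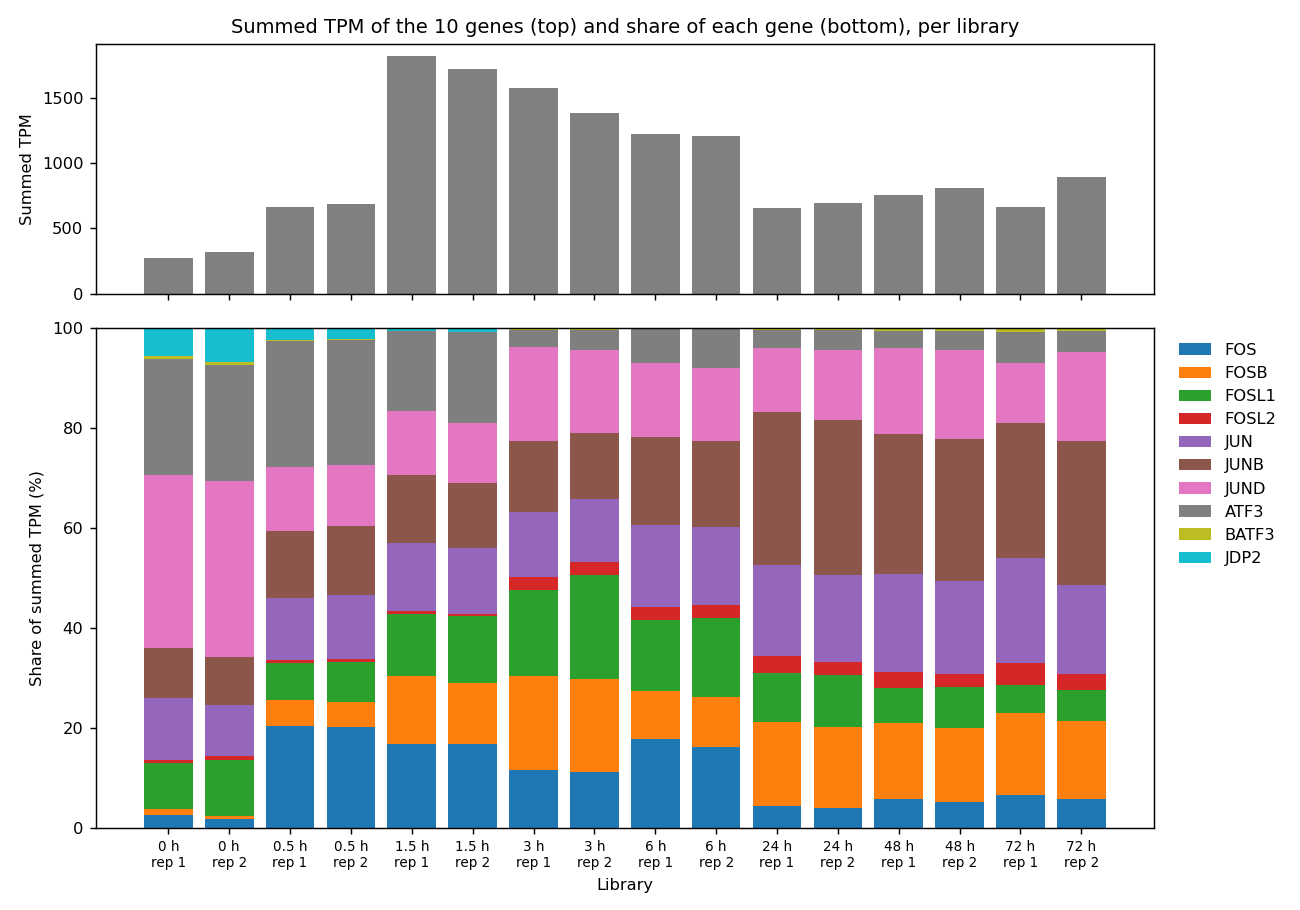
Summed TPM of the 10 genes in each of the 16 libraries (top, bars from 0) and the share of each gene in that sum (bottom, stacked to 100%). JUND and ATF3 held 34.8 and 23.2% of the sum in the first 0 h library, and JUNB held 27.1 and 28.8% in the 72 h libraries.

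JUNB was the most abundant member per length at 6, 24, 48 and 72 h. Its libraries overlapped with those of FOS at 6 h and stood apart from those of the next gene, JUN, at 24, 48 and 72 h. ATF3 was first at 0.5 h, and at 1.5 h ATF3 and FOS overlapped. At 3 h FOSL1, FOSB and JUND came first with overlapping neighbours. At 1.5 h JUN, JUNB, FOSB, FOSL1 and JUND lay so close, with means of 219.7 to 238 TPM, that each overlapped with its neighbour in the order.

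Reads were also given to annotated transcripts, and for FOSB this split changed with time. These are the authors' estimates, uncertain where transcripts share exons and few reads fall on the parts that differ. At 0 h FOSB-206 took 43.7 to 52.5% of the reads of the gene and FOSB-209 34.6 to 36.5%. The 2 libraries of 0.5 h disagreed, with FOSB-201 at 16.3 and 0% and FOSB-206 at 13.8 and 30.4%. From 1.5 h on FOSB-206 was at 0.1% or less, and FOSB-201, the 4-exon transcript, held 48.0 to 51.5% then and 71.9 to 73.2% at 72 h. FOSB-210 was highest at 1.5 h, with 25.1 to 28.5%. FOSB-212 lacks 140 bases of the last exon (GRCh38 chromosome 19, 45472707 to 45472846), the intron whose removal gives the short ΔFosB form. FOSB-211 lacks the same bases, and FOSB-213 141 bases from the same start. These 3 transcripts together held 8.1 to 8.8% of FOSB reads at 0 h, 12.5 to 14.1% (0.5 h) and 13.9 to 17.3% in the later libraries.

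FOSL1 and ATF3 changed their split for a limited time. FOSL1-202 held 19.4 to 19.7% of FOSL1 reads at 0 h, 36.3 to 41.3% (1.5 h) and 20.6 to 21.0% (48 h). ATF3-202, the main coding transcript, held 84.7 to 87.2% (0 h), 62.3 to 68.5% (0.5 h), 87.1 to 87.5% (1.5 h) and 67.3 to 74.2% (6 h). The retained-intron transcript ATF3-208 had 11.2 to 12.7% (0.5 h) and 9.7 to 10.8% (6 h), against 2.4 to 2.6% (1.5 h). The non-coding ATF3-209 had 14.4 to 18.3% (0.5 h) and 2.5 to 3.2% (1.5 h). JUN and JUNB have a single annotated transcript in the files.

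**Figure D4:**
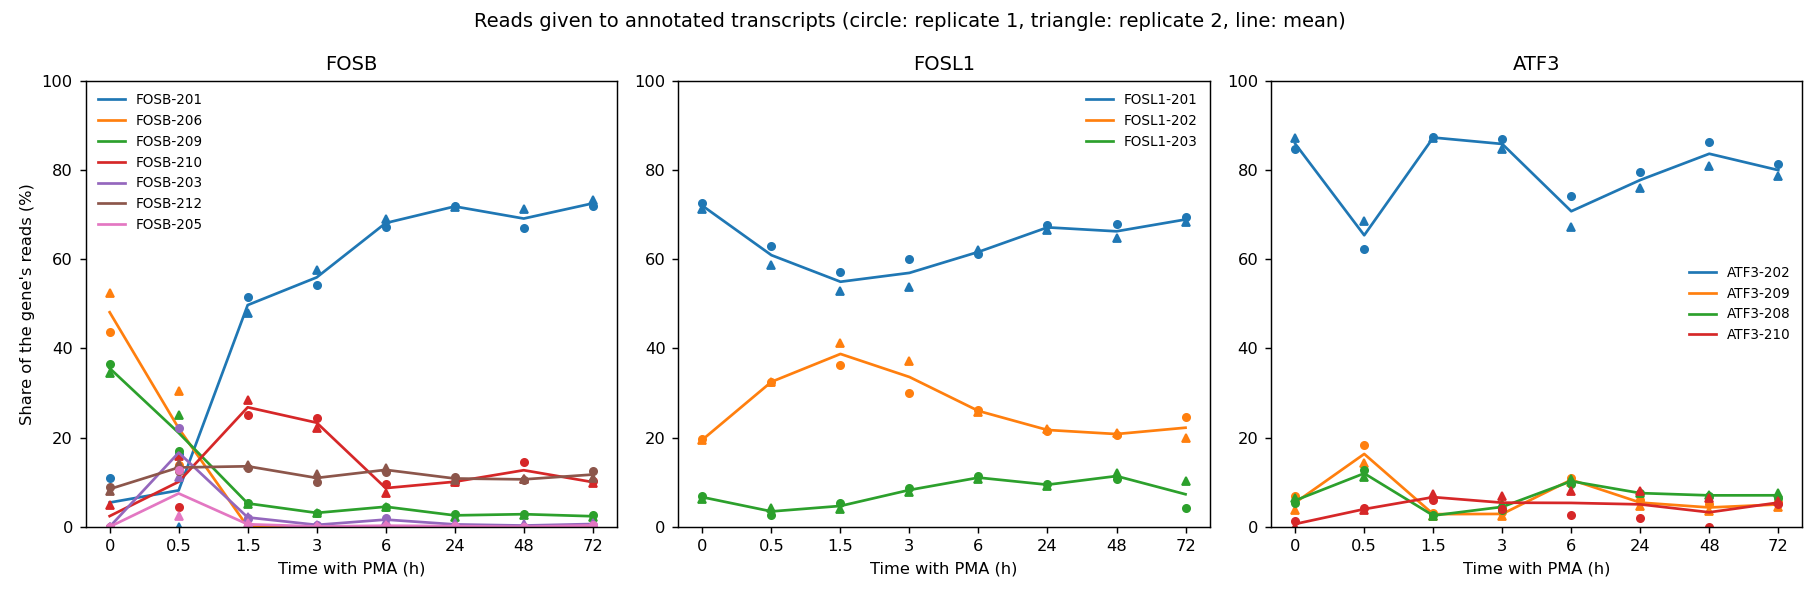
Share of the reads of FOSB, FOSL1 and ATF3 (y axis, percent) given to their most used annotated transcripts at each time (x axis), with circles for replicate 1, triangles for replicate 2 and lines through the mean. FOSB-201 climbs from 0.0 to 10.9% at 0 h to 71.9 to 73.2% at 72 h, FOSL1-202 peaks at 1.5 h, and ATF3-202 dips at 0.5 and 6 h.

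In gene order, FOS lies near JDP2 and ATF3 near BATF3. In each pair the 72 h changes against 0 h had opposite signs. The courses were not opposite throughout, since FOS and JDP2 were both called lower from 6 to 24 h. FOS (GRCh38 chromosome 14, 75278774 to 75282230, plus strand, ENSG00000170345) and JDP2 (75427716 to 75474111, plus strand, ENSG00000140044) are 145 kb apart with 0 annotated protein-coding genes between them. BATF (75522425 to 75547015), another partner of JUN and no member, follows 48.3 kb after JDP2. At 72 h FOS was higher by 2.92 on the log2 scale and JDP2 lower by the value above, and BATF had 332.6 and 321 reads against 9 and 4 at 0 h, a log2 fold change of 5.54 (edgeR adjusted p = 4.7e-09). BATF was not called higher before 6 h (1.23, edgeR adjusted p = 0.021). ATF3 (chromosome 1, 212565334 to 212620777, plus strand, ENSG00000162772) and BATF3 (212686418 to 212699985, minus strand, ENSG00000123685) are 65.6 kb apart with 1 protein-coding gene, GARIN4, between them. In this pair the 72 h changes against 0 h were -1.102 and 1.33. Whether neighbours are regulated together was not tested.

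The other members are not in these pairs. FOSB is ENSG00000125740 (chromosome 19, 45467995 to 45475179, plus strand), JUNB ENSG00000171223 (chromosome 19, 12791496 to 12793315, plus strand), JUND ENSG00000130522 (chromosome 19, 18279760 to 18281622, minus strand), JUN ENSG00000177606 (chromosome 1, 58780788 to 58784327, minus strand), FOSL1 ENSG00000175592 (chromosome 11, 65892049 to 65900573, minus strand) and FOSL2 ENSG00000075426 (chromosome 2, 28392448 to 28417312, plus strand). HOOK2, on the opposite strand, shares 259 of the 1820 exonic bases of JUNB, and whether counting used strand is not given in the sources used here. HOOK2 stayed at 9.90 to 20.3 CPM in all libraries, while JUNB went from 28.9 and 35.9 CPM at 0 h to 192 and 273 CPM at 72 h. ERCC1 spans FOSB on the other strand and shares 0 exonic bases with it. FOSL2 overlaps FLJ31356 (antisense) and AC104695.3 (same strand, annotated as intronic), and JDP2 overlaps AF111167.2 (antisense). Their shared exonic bases were not counted.

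Among 28 other basic leucine zipper genes, which include ATF, CREB, MAF and C/EBP factors, 26 were tested. At 0.5 h 0 were called. At 1.5 h 8 were higher and 2 lower, followed by 13 higher with 10 lower (6 h) and 9 higher with 9 lower (72 h). Over all genes the shares higher and lower were 9.05% and 8.05% (1.5 h), 27.8% and 29.4% (6 h) and 31.7% and 26.9% (72 h), and the 72 h counts of the list lie near them. The median log2 fold change was 0.26 at 1.5 h and 0.09 at 72 h, beside -0.03 and -0.03 over all genes. MAFF, a small MAF protein, rose most at 1.5 h, from 16.1 and 17.3 to 65.2 and 66.3 CPM (log2 fold change 1.97). CREM, a cAMP-responsive factor, rose most at 3 h (2.66), and BACH2, a repressor of MAF sites, at 6 h (4.01) and 24 h (3.52). NFE2, an erythroid and megakaryocyte partner of small MAF proteins, fell most at 3 h, from 78.9 and 99.1 to 7.63 and 6.82 CPM (log2 fold change -3.62), and at 6 h (-5.57). ATF5 fell most from 24 h on, at -3.96, -4.21 and -4.18.

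Genes of the pathways that act on the family, such as kinases of the MAP kinase cascades, serum response factor partners and JUN ubiquitin ligases, were tested in full, 25 of 25. At 0.5 h 0 were called, at a time when 0.165% of all genes were higher. At 1.5 h 4 were higher and 2 lower, followed by 14 higher with 7 lower (6 h) and 12 higher with 6 lower (72 h), against the shares of all genes just given. The list's median log2 fold change was 0.12 (1.5 h), 0.49 (6 h) and 0.30 (72 h), beside -0.03, 0.00 and -0.03 over all genes. MEF2D, a factor that binds the JUN promoter in other cells, rose most at 1.5 and 3 h (log2 fold changes 0.78 and 1.79). ELK3, a partner of serum response factor, rose most at 24 h, from 6.33 and 4.65 to 76.4 and 74.3 CPM (3.78). DET1, part of a ubiquitin ligase for JUN, fell most at 3 h (-1.50).

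Genes known from other cells to be driven by AP-1 were mostly higher from 3 h on. Of 25 listed, 22 were tested, and the number higher was 1 (0.5 h), 6 (1.5 h), 19 (3 h), 20 (6 h), 22 (24 h), 21 (48 h) and 20 (72 h), with 0 lower at each of these times. Over all genes the share higher was 0.165% (0.5 h), 9.05% (1.5 h), 21.5% (3 h), 27.8% (6 h), 31.7% (24 h), 30.2% (48 h) and 31.7% (72 h). The shares lower are given with the member counts above. This list was chosen with earlier results of these data known, so its counts are a description. The list's median log2 fold change was -0.09 (0.5 h), 0.27 (1.5 h), 2.77 (3 h) and 4.93 (6 h), beside 0.00 over all genes at the last 2 times. With the 4 genes whose 0 h libraries held 3 reads or fewer set at their bound, the medians were -0.14, 0.19, 2.77 and 4.14. These genes have other regulators as well, and binding of AP-1 was not measured here.

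CXCL8, a neutrophil chemokine, was the listed gene called at 0.5 h, with 13.4 and 16.3 CPM against 6.08 and 4.73, and reached 372 and 403 CPM at 1.5 h (log2 fold change 6.16, edgeR adjusted p = 2.8e-11). MMP10, a matrix protease, had 3 and 0 reads at 0 h and 511 and 675 at 6 h, at least 242-fold higher per effective library with the floor of 3 reads per library. CCL2, a monocyte chemokine, rose most from 24 h on, from 0.491 and 0.515 CPM to 741 and 861 (10.63). The 22 tested genes in the plot include MMP1, PLAU, CD44 and TIMP1.

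**Figure D5:**
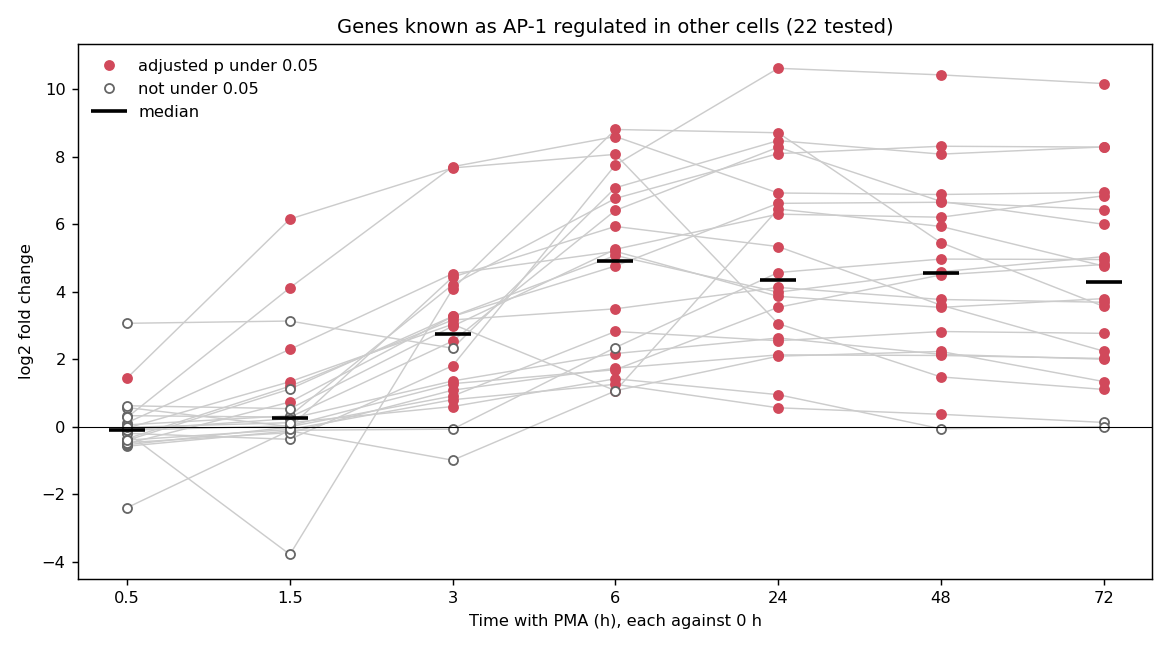
log2 fold change against 0 h (y axis) of the 22 tested genes known as AP-1 regulated in other cells at the 7 treated times (x axis), filled where edgeR's adjusted p was under 0.05, with grey lines joining a gene and a black bar at the median. 1 gene is filled at 0.5 h and 22 at 24 h, and the points below -2 at 0.5 and 1.5 h are genes with few reads that were not called.

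The genes whose courses were most like those of the members over the 16 libraries were sought among the 11260 genes that averaged 5 CPM or more, by Pearson's r of log2 CPM. The points share libraries and the 8 times, so r is a description. For FOS these were EGR1 (r = 0.95) and IER2 (0.93), both immediate-early genes. EGR3, a zinc finger factor of the same class, was first for FOSB (0.97) and JUNB (0.97) and second for JUN (0.96), after EGR2 (0.97). Other members were left out of this ranking. Among members, FOSB had r = 0.973 with JUNB and 0.965 with JUN. Beside these, the r with EGR3 was 0.967 for FOSB, 0.974 for JUNB and 0.956 for JUN. FOSL2 followed SPRY4 (0.996), a feedback inhibitor of receptor kinase signalling, and FOSL1 followed TEX14 (0.97) and CXCL8 (0.97). JUND was closest to IRS2 (0.96) and ATF3 to KLF11 (0.94). BATF3 was closest to DOK2 (0.98), a signalling adaptor of blood cells, and JDP2 to GINS2 (0.96) and NCAPH (0.95), which serve DNA replication and chromosome condensation.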

How the data were processed

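RNA sequencing of 16 K562 libraries, 2 per time point, was used. Per the file headers, the authors deposited, for each library and transcript, an estimated count of reads (NumReads) and TPM. The submitters' processing notes name Salmon, Trim Galore 0.4.3, HISAT2 2.1.0, SAMtools 1.9, deepTools 3.0.1, R 3.3.1, DESeq2 and the builds hg19 and hg38. Which of them made these tables, and whether strand was used, is not given in the sources used here.

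Counts and TPM were summed per gene with GENCODE 29 (GRCh38), matched by Ensembl transcript ID without version. Of 177456 transcripts 167027 (94.1%) matched, in 35052 genes, and the unmatched ones held 3.01 to 3.75% of a library's reads. Expected counts were rounded and tested with edgeR 4.0.16 in R 4.3.3: filterByExpr (17559 genes), TMM factors (0.854 to 1.139), 1 fit of all time points, and quasi-likelihood F-tests. A change was called at a Benjamini-Hochberg adjusted p under 0.05 over all genes of a comparison. The common biological coefficient of variation was 0.123. CPM uses the TMM-scaled library size, and fitted fold changes use a prior count of 0.125. The floor of 3 reads and all intervals cover counting error only. Tables were built with Python 3.11.15 and pandas 2.3.3. The test was checked on simulated counts. Promoter letters come from RefSeq (GRCh38.p14).

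The members and lists were chosen with earlier results of these data known. The text names all members. Of each list it names the called gene with the largest rise or fall, among those with a mean of at least 1 CPM. It also names the 2 genes outside the family most like each member. A few list genes or neighbours were chosen after their values were seen (BATF, MMP1, PLAU, CD44, TIMP1). Some items that this rule takes are not reported here. Alternatives were other size factors, total counts, no low-count filter or a stricter one, length-scaled TPM, GC offsets, a replicate block, both of these together, separate fits of the times compared, DESeq2 1.42.0 and leaving out each library. A comparison of the members' protein sequences was planned and not run.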

Additional observations from a re-analysis of the deposited data

Results flagged for a closer look

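In 2 members the effect of PMA against 0 h had opposite signs at early and late times. In both cases the contrast was picked after the values were seen. ATF3 was higher than at 0 h by 1.91 on the log2 scale at 1.5 h and lower at 24 h (-1.58). The test of the difference, 24 h against 1.5 h, gave a log2 change of -3.49 ± 0.13 (SE, edgeR adjusted p = 8.3e-11), with both 24 h libraries below both 1.5 h libraries. BATF3 was lower than at 0 h at 6 h (-1.49) and higher at 72 h (1.33), and 72 h against 6 h gave 2.82 ± 0.39 (edgeR adjusted p = 2.87e-05), from 3 and 13 reads against 79 and 69. The untreated libraries drop out of both tests of the difference.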

How the results depend on the processing

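Of the values of single members under an alternative, 2384 kept their direction and their side of the threshold, 67 lost a call, 13 gained a call and 12 changed sign. Every change of sign concerned a value that was not called in the report, but JUND at 0.5 and 24 h was called with the turned sign with GC offsets, alone or with the replicate block. JUND at 0.5 h was 0.37 with GC offsets, alone or with the replicate block, and ranged from -0.47 to 0.01 (0.0147) when a library was left out. At 24 h JUND was 0.26 with GC offsets, alone or with the block, and -0.37 to 0.12 without a library. At 72 h it was -0.10 with total counts and -0.34 to 0.36 without a library. ATF3 at 3 h was 0.0021 with length-scaled TPM, and JDP2 at 0.5 h was -0.49 to 0.08 (0.0752) without a library. The 2 members lower at 3 h became 1 with DESeq2 size factors, length-scaled TPM, the replicate block, GC offsets, both of these or only the 2 times, and 0 with DESeq2 or at least 10 counts in every library. Leaving out a library gave 0 to 2. Those lower at 6 h went from 2 to 0 with at least 10 counts, 1 with length-scaled TPM and 1 to 2 without a library. At least 10 counts in every library also turned 2 into 1 at 24, 48 and 72 h, since it removes JDP2 and BATF3. With no filter 1 member was lower at 1.5 h in place of 0. The 1 member higher from 1.5 to 3 h became 4 with no filter or with GC offsets and the block, 3 with GC offsets or DESeq2, 2 with length-scaled TPM, the block or only the 2 times, and 1 to 3 without a library. From 3 to 6 h the 2 higher became 1 with length-scaled TPM or only the 2 times and 1 to 2 without a library, and the 3 lower became 5 with no filter and 1 to 3 without a library. The 1 higher from 6 to 24 h became 0 with at least 10 counts. From 24 to 48 h the 2 higher became 1 with at least 10 counts or length-scaled TPM, 4 with GC offsets and the block (which also gave 1 lower in place of 0), and 0 to 2 without a library. From 48 to 72 h 2 were higher with GC offsets, alone or with the block, and 1 was lower with no filter or with GC offsets and the block, all in place of 0. Over all genes, the 30 calls at 0.5 h became 123 with DESeq2, 1538 with no filter, 59 with GC offsets, 74 with the block added, 12 with only the 2 times, and 20 to 3585 without a library. With only the 2 times, calls fell from 3003 to 1098 at 1.5 h and from 7370 to 4823 at 3 h. From 48 to 72 h the 258 calls became 77 with length-scaled TPM, 877 with GC offsets, 1280 with the block added, 659 with no filter and 87 with only the 2 times. With GC offsets, these with the block, and only the 2 times, calls from 0.5 to 1.5 h rose from 1014 to 1930, 2391 and 2473, and those from 24 to 48 h from 2633 to 4241, 4957 and 4444. From 1.5 to 3 h they rose from 4408 to 6809 with GC offsets and the block. Same-numbered libraries deviated together weakly, with r of -0.12 to 0.17 over the comparisons, and the labels name no shared batch, so the samples share only a number. The replicate block lost the call of BATF3 at 3 h and added 1 call from 1.5 to 3 h. The cause of the other changes was not tested. Low counts limit BATF3 and, from 6 h on, JDP2.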
